A study of Mus musculus with 768 samples.

Results

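The nuclear genes of oxidative phosphorylation were described in single mouse cells that were being turned from embryonic stem cells towards motor neurons. The members were chosen by name alone, as every gene whose symbol starts with Ndufa, Ndufb, Ndufc, Ndufs, Ndufv, Sdh, Uqcr, Cox4 to Cox8 or Atp5, and 91 of the 27723 genes in the table met this rule. By textbook role, 74 of them encode broadly expressed subunits, with 36 in complex I, 4 in complex II, 8 in complex III, 11 in complex IV and 15 in complex V. Another 8 encode paralogs of complex IV subunits that are known for restricted expression, and 8 encode assembly or associated factors. The remaining gene, Cox4nb, shares only its old name with the family, since RefSeq lists it as Emc8, a subunit of a membrane complex of the endoplasmic reticulum.

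Oxidative phosphorylation couples the oxidation of NADH and succinate in the inner mitochondrial membrane to the making of ATP. Complexes I and II pass electrons to ubiquinone, complex III passes them on to cytochrome c, complex IV reduces oxygen, and complex V, the ATP synthase, uses the proton gradient that complexes I, III and IV build. Most subunits are encoded in the nucleus and must be made in proportion to the few encoded in mitochondrial DNA. Pluripotent stem cells are known for strong glycolysis, and neurons for their dependence on respiration.

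Cells of the mouse line Ainv15(iNgn2.Isl1.Lhx3.V5) were grown as embryoid bodies for 2 days and then given doxycycline at 3 µg/ml, which switches on a cassette of the 3 factors Ngn2, Isl1 and Lhx3. Viable single cells were sorted at 0, 6, 12, 18, 24, 30, 36 and 48 h, 96 cells at each of the 8 time points, and profiled by SMART-Seq2, a full-length method without molecular identifiers. All cells, those at 0 h included, carried the cassette, and the sources used here do not say whether the line is 1 clone. No cells analysed here had doxycycline without the cassette, so the drug, the factors and the time since the change of medium cannot be told apart.

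The values are transcript levels in TPM, scaled per length and to a fixed total per cell, so genes can be compared with each other, and each value is a share of its cell's total. The 368 cells in which 2000 or more genes were above 0 were used, with 37, 53, 52, 56, 55, 57, 44 and 14 cells from 0 to 48 h in order of time. Nothing in the labels sets cultures apart at a given time, so a time point counts as 1 sample, every SD below is over its kept cells, and no test of significance was made. The median kept cell at 6, 18, 24 and 30 h had 6481 to 7484 genes above 0, and the median kept cell at 0, 12, 36 and 48 h had 2141 to 5304. Sod1 took 0.0518% to 0.0807% of TPM in the first 4 and 1.96% to 6.53% in the other 4, and the part of these gaps in the values below was not tested. The labels speak of a pair of library batches without saying which cells were in which. Comparisons were therefore made within each set of 4 time points, against 0 h in one and against 6 h in the other.

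The labelled cell type, embryoid bodies with induced factors, was checked against markers. The 8 pluripotency markers summed to 945 TPM at 30 h, against 2666 TPM at 6 h, and to 2998 TPM at 12 h, against 6118 TPM at 0 h. The 10 neuron markers summed to 679 TPM at 30 h, against 240 TPM at 6 h, and to 3602 TPM at 48 h, against 73.1 TPM at 0 h. The 5 motor neuron markers, which include the cassette genes Isl1 and Lhx3, summed to 88.8 TPM at 30 h, against 38.1 TPM at 6 h. At 48 h these 5 summed to 192 TPM, against 3.49 TPM at 0 h, and none of them passed the filter given below. Markers of other lineages moved as well: the 4 trophoblast markers summed to 986 TPM at 30 h, against 272 TPM at 6 h, from Krt8 and Krt18 and with Cdx2 at 0 at every time point. Their sum was 391 TPM at 12 h, against 11.6 TPM at 0 h. The 4 mesoderm markers summed to 51.0 TPM at 30 h, against 0.541 TPM at 6 h, nearly all of it T, and Hand1 was at 0 at all 8 time points. The mesoderm sum was 161 TPM at 36 h, against 3.08 TPM at 0 h, but none of the 4 passed the filter in this comparison. The 5 endoderm markers stayed at or below 4.18 TPM. The part of any of these cells in the values below was not tested.

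The proximal promoters of 6 members are shown, and Cox6a1 stands without its paralog Cox6a2, which has no RefSeq promoter entry. For the others, results below set genes for the same subunit against each other, and the sequences let those genes be compared. They come from RefSeq (GRCm38.p6, the assembly known as mm10), each running 5′ to 3′ on the gene's own strand over the 250 bases before the start that RefSeq's table of promoters uses. All 6 genes lie on the minus strand: Atp5g1 at chr11:96075632-96075881, Atp5g2 at chr15:102671048-102671297, Atp5g3 at chr2:73911327-73911576, Cox6b1 at chr7:30626115-30626364, Cox6b2 at chr7:4753095-4753344 and Cox6a1 at chr5:115348959-115349208. The start used lies inside the annotated span of Atp5g3 (chr2:73908447-73912464), and the Atp5g1 stretch overlaps the first bases of its gene (chr11:96072793-96075694). Capitals mark matches to the motifs of NRF1 (GCGCATGC) and GABPA (CCGGAAG), activators known for mitochondrial genes, on either strand.
Atp5g1: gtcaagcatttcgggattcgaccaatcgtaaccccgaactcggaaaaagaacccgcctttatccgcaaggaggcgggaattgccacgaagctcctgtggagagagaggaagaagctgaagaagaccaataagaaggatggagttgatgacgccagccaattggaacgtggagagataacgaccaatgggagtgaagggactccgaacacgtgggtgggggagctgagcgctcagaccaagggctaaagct
Atp5g2: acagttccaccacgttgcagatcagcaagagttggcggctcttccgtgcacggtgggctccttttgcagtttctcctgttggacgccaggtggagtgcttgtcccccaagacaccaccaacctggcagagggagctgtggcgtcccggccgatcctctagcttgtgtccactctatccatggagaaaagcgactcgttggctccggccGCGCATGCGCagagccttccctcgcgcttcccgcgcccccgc
Atp5g3: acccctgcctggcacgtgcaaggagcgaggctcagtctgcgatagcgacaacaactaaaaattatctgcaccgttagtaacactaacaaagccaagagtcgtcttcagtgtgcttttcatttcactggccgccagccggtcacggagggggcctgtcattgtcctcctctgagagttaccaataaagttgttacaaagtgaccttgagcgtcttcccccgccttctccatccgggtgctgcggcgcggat
Cox6b1: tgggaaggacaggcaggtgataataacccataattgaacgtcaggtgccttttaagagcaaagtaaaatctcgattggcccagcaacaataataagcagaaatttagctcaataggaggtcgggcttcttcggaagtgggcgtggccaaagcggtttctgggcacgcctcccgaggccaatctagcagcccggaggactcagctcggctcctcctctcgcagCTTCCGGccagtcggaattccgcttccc
Cox6b2: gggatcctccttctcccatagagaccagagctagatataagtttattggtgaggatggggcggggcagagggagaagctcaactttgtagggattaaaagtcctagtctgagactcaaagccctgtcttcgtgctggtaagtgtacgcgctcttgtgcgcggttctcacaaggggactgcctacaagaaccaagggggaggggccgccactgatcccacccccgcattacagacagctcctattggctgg
Cox6a1: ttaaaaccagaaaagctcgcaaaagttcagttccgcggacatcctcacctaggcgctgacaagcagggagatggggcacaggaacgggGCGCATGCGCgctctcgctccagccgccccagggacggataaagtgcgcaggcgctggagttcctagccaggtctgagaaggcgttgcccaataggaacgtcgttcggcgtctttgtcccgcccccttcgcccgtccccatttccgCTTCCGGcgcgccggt
Atp5g2 holds an NRF1 match that reads on both strands, 42 bases before the start, and neither Atp5g1 nor Atp5g3 holds a match in these bases. Cox6a1 holds the same NRF1 palindrome 162 bases before the start and a GABPA match 16 bases before it. Cox6b1 holds a GABPA match 28 bases before the start, and Cox6b2, its testis paralog, holds none.

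Over all members the same search, with YY1 (AAGATGGC) added and a window of 250 bases before to 50 after the start, could be made for the 75 genes with a RefSeq promoter, a gene with several starts counting once if any of them held the letters. NRF1 letters were present in 14.7% of them, against 3.02% of the 26950 other genes with a promoter. GABPA letters were present in 25.3%, against 9.88%, and YY1 letters in 14.7%, against 3.16%. At least 1 of the 3 motifs stood in 46.7% of the members' promoters and in 14.8% of the others. A palindromic NRF1 match is found once on each strand, and GABPA and YY1 letters can overlap, since the end of one and the start of the other are AAG. A match is a run of letters, and its use in these cells was not measured. Among those with no entry are Atp5a1, Cox4i1, Cox4i2, Cox4nb, Cox6a2, Cox6c, Cox8c, Ndufa2, Ndufa4l2, Ndufb9, Ndufs1, Sdhc, Uqcrb, Uqcrc2 and Uqcrq.

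In kept cells the members together made up a similar share of the transcripts at each time point of a set. Summed over the 91 genes, the share of a cell's TPM was 3.12% ± 0.879, 3.28% ± 1.23, 3.42% ± 0.638 and 3.15% ± 0.767 at 6, 18, 24 and 30 h (SD over 53, 56, 55 and 57 cells). In the other set it was 1.52% ± 0.415, 1.70% ± 0.535, 1.67% ± 0.643 and 1.53% ± 0.510 at 0, 12, 36 and 48 h (SD over 37, 52, 44 and 14 cells). Within a set the means over kept cells differed by less than the SD over cells, and between the sets they differed by more. This SD is the spread of single cells and does not measure the uncertainty of a time point's mean. Single cells spread widely at 18 h, with 1.04% in the lowest and 7.24% in the highest.

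**Figure D1:**
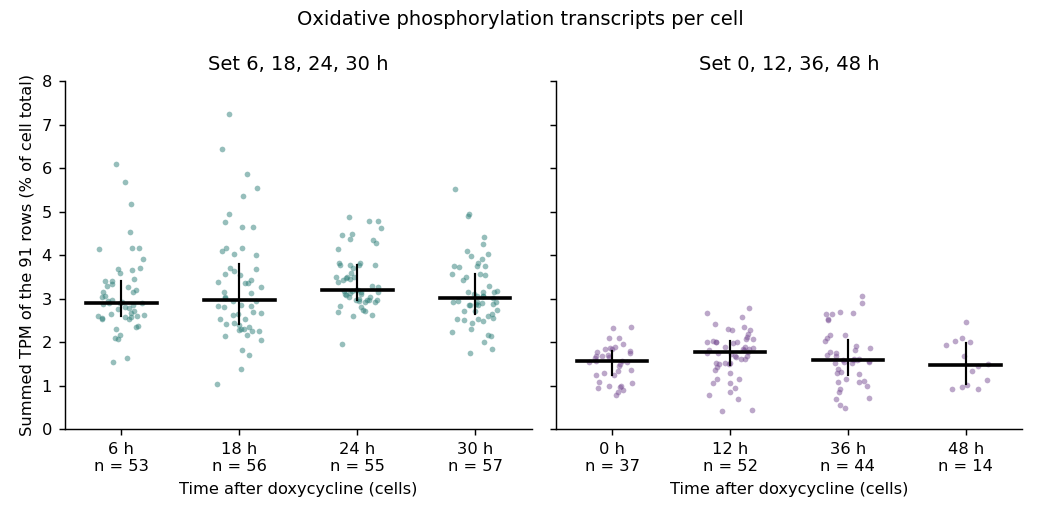
Summed TPM of the 91 genes as a percentage of each cell's total (y axis) at each time point (x axis), with 1 point per kept cell, a horizontal bar at the median and a vertical line over the quartiles. The medians at 6, 18, 24 and 30 h lie between 2.91% and 3.19%, and those at 0, 12, 36 and 48 h between 1.48% and 1.77%.

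The complexes kept their proportions in the better detected set. Complex V, the ATP synthase, supplied 32.8%, 32.7%, 32.8% and 33.4% of the members' TPM at 6, 18, 24 and 30 h. Complex I supplied 26.3%, 28.2%, 27.3% and 26.1% at the same times, and complex IV 26.8%, 24.5%, 25.8% and 26.0%. Complex III supplied 9.46% to 10.3%. Complex II, which is also the succinate dehydrogenase of the citrate cycle, supplied 2.05% to 2.56%. In the other set the proportions differed more between time points. At 0, 12, 36 and 48 h complex V supplied 30.8%, 27.8%, 25.9% and 28.7%, and complex IV 32.2%, 30.7%, 30.4% and 25.7%. Complex I supplied 25.6%, 29.8%, 29.4% and 32.0% at those times, and complex II 2.41% to 5.73%. As a share of all TPM, complex V took 1.05% ± 0.233 at 30 h (SD, n = 57 cells), against 1.02% ± 0.212 at 6 h (n = 53).

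Levels per length ranged widely among subunits of the same complex. Over the mean of all 8 time points, Cox4i1, the regulatory subunit of complex IV, was highest with 1152 TPM, ahead of Atp5g2, a gene for the membrane ring of the ATP synthase, with 871 TPM. Ndufa4, a subunit of complex IV despite its name, followed with 752 TPM, Cox7a2 with 726 TPM and Atp5o, which joins the head of the synthase to its stalk, with 714 TPM. This order mixes the sets of time points. In the better detected set, Cox4i1 (1330 TPM) was followed by Ndufa4 (1093 TPM), Cox6c (1057 TPM) and Atp5b (1015 TPM), while Cox7a2 had 533 TPM. In the other set Cox4i1 had 974 TPM and Cox7a2 had 919 TPM. Among core subunits of complex I, over all 8 time points, Ndufs7 had 238 TPM, Ndufv1 182 TPM, Ndufs3 177 TPM, Ndufv2 150 TPM, Ndufs8 109 TPM and Ndufs1 71.9 TPM. Here too the order differed between the sets. The better detected set had Ndufv2 at 231 TPM, Ndufs3 at 201 TPM, Ndufs7 at 164 TPM and Ndufv1 at 154 TPM. The other set had Ndufs7 at 312 TPM, Ndufv1 at 210 TPM, Ndufs3 at 153 TPM and Ndufv2 at 68.4 TPM. Over all 8 time points the Rieske protein gene Uqcrfs1 had 48.0 TPM, while Uqcrc1 and Uqcrc2, the core proteins of the same complex, had 252 and 159 TPM. A level that includes reads from near-identical copies is uncertain, and such copies are many in this family: 72 of the 91 members had at least 90% of their 50-base words unique among annotated transcripts, while Atp5l had 31.5%, Atp5h 52.1% and Uqcrb 56.8%.

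**Figure D2:**
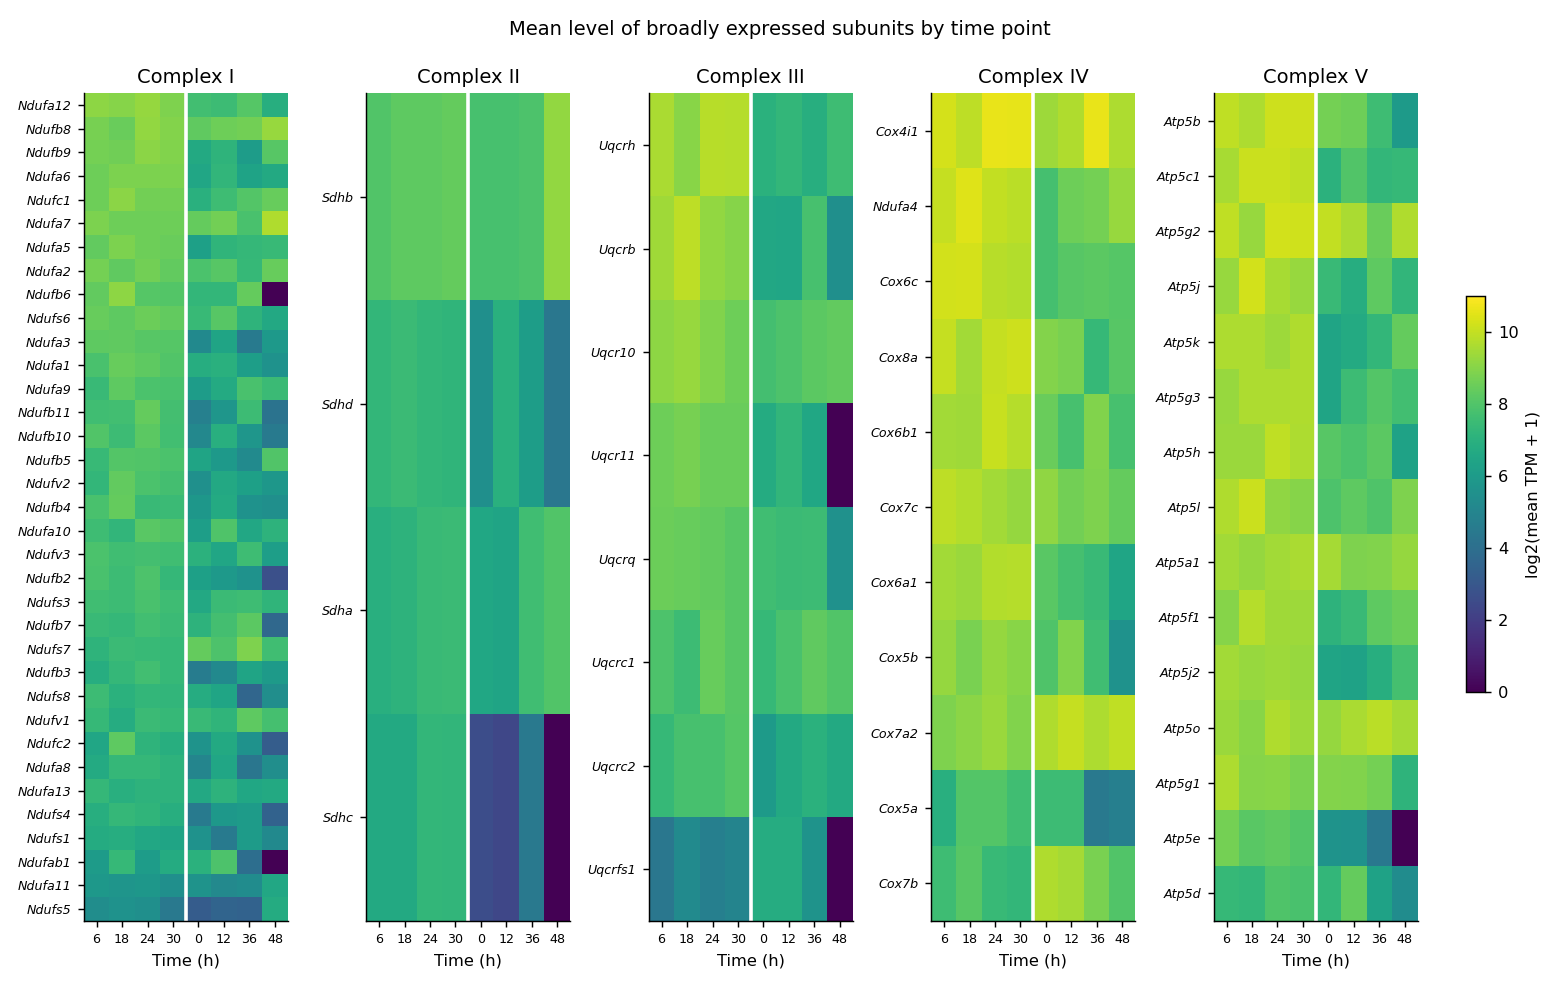
Mean level of broadly expressed subunits, as log2 of mean TPM + 1 (colour), by time point (x axis, the set of 6, 18, 24 and 30 h left of the white line and that of 0, 12, 36 and 48 h right of it), in 1 panel per complex. Most subunits are higher left of the line, while Cox7a2 and Ndufs7 are lower there.

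Most members were higher in the better detected set. The average of the means at 6, 18, 24 and 30 h was above that at 0, 12, 36 and 48 h in 75 of 91 members, in 69 of the 83 that averaged at least 10 TPM, beside 37.4% of all genes at that level, and in 58 of the 66 that averaged at least 100 TPM, beside 48.8%. In 47 of the 91 members each of the means at 6, 18, 24 and 30 h was above each of those at 0, 12, 36 and 48 h, and in 2 members, Cox7a2 and Ndufs7, each was below. Of the 83 members these were 45 and 2, beside 11.5% and 20.4% of the 6954 genes at that level. Of the 66 they were 40 and 2, beside 24.9% and 25.1% of 1376 genes. Sdhc, a membrane anchor of complex II, had 102, 101, 156 and 149 TPM at 6, 18, 24 and 30 h, and 5.13, 4.10, 20.7 and 0 TPM at 0, 12, 36 and 48 h. Atp5e, the epsilon subunit of the synthase, had 417, 293, 322 and 269 TPM at 6, 18, 24 and 30 h, and 49.0, 48.4, 20.0 and 0 TPM in the other set. Cox7a2 went the other way, with 467, 536, 643 and 485 TPM at 6, 18, 24 and 30 h, and 825, 1059, 803 and 989 TPM at 0, 12, 36 and 48 h. Cox7b, another small subunit of complex IV, had 193, 284, 169 and 156 TPM in the first set, and 817, 735, 436 and 258 TPM in the second. The 2 sets interleave in time, and library preparation and time point cannot be told apart in this split.

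At 30 h no member that passed differed 2-fold from 6 h on the log2(mean TPM + 1) scale, though the plain mean of Cox6b2 did. Of the 91 members, 81 passed the filter, which asked that the higher of both time points reach a mean of 10 TPM and hold the gene in 25% of its cells or more. The 10 that did not were Atp5s, Cox4i2, Cox4nb, Cox6a2, Cox7a1, Cox7b2, Cox8b, Cox8c, Ndufa4l2 and Sdhaf1, all but 3 of them restricted paralogs. Among the 81 the counts were 0 higher and 0 lower, where 13.9% of the 6317 genes that passed were at least 2-fold higher and 6.03% at least 2-fold lower. Among genes of at least 100 TPM in at least 80% of cells, 4.48% were 2-fold higher and 7.47% lower, and none of the 72 members at that level was either. At 1.5-fold, 7 members were higher and 6 lower, beside 28.8% and 12% of all genes that passed. The median log2 fold change on the log2(mean TPM + 1) scale was 0.09 for the members and 0.20 for all genes. After rescaling to a median of 0 for all genes the members' median was -0.11, so its sign depends on the scaling. With the cells under 2000 genes included, 8 members were 2-fold higher and 8 lower, and by the median over cells 1 was higher and 5 lower.

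In complex I, 36 of 36 subunits passed at 30 h against 6 h, with a median log2 fold change of 0.02 and a range of -0.95 to 0.73. Ndufv1, which binds NADH, had 164, 112, 178 and 162 TPM at 6, 18, 24 and 30 h, and Ndufs1, the largest iron-sulfur subunit, had 108, 116, 95.3 and 84.0 TPM. Both stayed within a factor of 2 of themselves over the 4 times. Ndufs5, a small subunit on the intermembrane side, was furthest below 0: it had 40.8, 47.3, 43.4 and 20.6 TPM at 6, 18, 24 and 30 h, was above 0 in 33.3% of cells at 30 h, against 45.3% at 6 h, and shares 50-base words with other transcripts (68.9% unique). Ndufab1, the mitochondrial acyl carrier protein, was furthest above, with 64.9, 166, 67.6 and 108 TPM. Its cells overlapped at all times, and the median cell held 39.1 TPM at 30 h, against 28.5 TPM at 6 h.

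Among the factors that build complex I, Ndufaf4 had 23.1 ± 21.4, 56.8 ± 58.6, 42.6 ± 45.1 and 44.2 ± 42.1 TPM at 6, 18, 24 and 30 h (SD over 53, 56, 55 and 57 cells). It was lowest at 6 h, and the cells of all 4 times overlapped. Its log2 fold change at 30 h against 6 h, 0.91, was the highest of the members that passed, and it lay between 0.68 and 0.95 under every alternative tried. Ndufaf3, named after its values were seen, had 16.4, 34.2, 32.1 and 27.6 TPM at 6, 18, 24 and 30 h. Ndufaf1 had 30.8, 56.0, 27.6 and 41.5 TPM. Of the 8 factors of all complexes, 6 passed, these 3 with Sdhaf2, Cox7a2l and Atp5sl, and their median was 0.51, with 4 above 0 and 2 below.

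In complex II, Sdha, the flavoprotein, had 122, 138, 172 and 180 TPM at 6, 18, 24 and 30 h. Sdhb, the iron-sulfur subunit, had 258, 304, 305 and 334 TPM. Both were lowest at 6 h and highest at 30 h, by less than the SD over cells. The anchors differed: Sdhc had 102, 101, 156 and 149 TPM, while Sdhd had 156, 178, 155 and 144 TPM. Over the 4 subunits the median log2 fold change at 30 h against 6 h was 0.45, the highest of the 5 complexes, with Sdhd at -0.12. Sdhaf2, which loads flavin onto Sdha, had 26.4, 26.1, 25.5 and 21.1 TPM.

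In complex III, Uqcrc2 had 165, 224, 220 and 269 TPM at 6, 18, 24 and 30 h. The mean was highest at 30 h, with 269 ± 189 TPM (SD, n = 57 cells), against 165 ± 115 TPM at 6 h (n = 53), and single cells reached 947 TPM at 30 h and 493 TPM at 6 h. Its partner Uqcrc1 had 243, 184, 342 and 285 TPM. Uqcrfs1, which carries the Rieske iron-sulfur cluster, had 19.6, 37.5, 25.5 and 30.6 TPM. Its mean was higher at 30 h than at 6 h, but its median cell was lower, 3.87 TPM at 30 h, against 12.8 TPM at 6 h, so mean and median differed in direction. Among small subunits, Uqcr10 and Uqcrb were lower, with 385 and 513 TPM at 30 h, against 562 and 700 TPM at 6 h.

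In complex IV, the median log2 fold change over 11 subunits at 30 h against 6 h was 0.06. Cox4i1 had 1238, 956, 1578 and 1548 TPM at 6, 18, 24 and 30 h, and was above 0 in every kept cell of those times. Cox5b had 611, 442, 604 and 534 TPM. Cox5a, which binds Cox4i1, had 123, 265, 262 and 194 TPM, and was at least 2-fold higher at both 18 h and 24 h than at 6 h. Its SD over cells, 194 TPM at 6 h and 446 TPM at 18 h, was larger than its mean at both times. Cox7c had 967, 848, 715 and 621 TPM, with 72.1% of its 50-base words unique.

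Several complex IV subunits exist as paralogs, and the broadly expressed one supplied nearly all of the family at 6, 18, 24 and 30 h. Cox4i1 made up 99.6% to 99.9% of the Cox4i pair, Cox8a at least 98.8% of its family and Ndufa4 at least 98.1% of the pair with Ndufa4l2. The muscle genes Cox6a2 and Cox8b were listed at 0 in all kept cells at 6 h and 30 h, which allows up to 5.66% of cells at 6 h and 5.26% at 30 h. Cox7b2 and Cox8c, known from testis, did not exceed 8.33 TPM. Cox4i2, known from lung and from low oxygen, had 1.42, 2.42, 6.38 and 6.91 TPM at 6, 18, 24 and 30 h.

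Cox6b2, the testis paralog of Cox6b1, stood above most other restricted paralogs in level, as did Cox7a1, described below. Cox6b2 had 61.8, 44.9, 28.0 and 30.4 TPM at 6, 18, 24 and 30 h, while Cox6b1 had 720, 697, 1069 and 874 TPM. Cox6b2 was above 0 in 42.1% of cells at 30 h (24 of 57, exact 95% binomial interval 29.1% to 55.9%), against 73.6% at 6 h (39 of 53, 59.7% to 84.7%). These intervals cover counting error only. It was above 0 in 66.1% of cells at 18 h and 36.4% at 24 h. Its mean at 30 h was more than 2-fold below that at 6 h. On the log2(mean TPM + 1) scale its fold change was -0.9988, just short of 2-fold lower. It was -0.01 in even-numbered cells, -1.84 in odd-numbered cells and -4.88 by the median over cells. Its size thus depends on which cells are used.

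Cox7a2l, which joins complexes III and IV into supercomplexes, stood beside Cox7a2 in level. It had 335 ± 221, 376 ± 224, 509 ± 225 and 510 ± 314 TPM at 6, 18, 24 and 30 h (SD over 53, 56, 55 and 57 cells). It was higher at 24 h and 30 h than at 6 h, with overlapping cells, and its log2 fold change of 0.60 at 30 h lay between 0.40 and 0.94 under every alternative tried. Of the summed means of Cox7a1, Cox7a2 and Cox7a2l it held 50.7% at 30 h, against 40.8% at 6 h. Cox7a1, the muscle paralog, had 20.1, 42.8, 35.0 and 10.8 TPM at 6, 18, 24 and 30 h and did not pass the filter at 30 h.

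In complex V, 15 of 15 subunits passed at 30 h against 6 h, with a median log2 fold change of 0.13. Atp5a1, the alpha subunit, had 714, 617, 717 and 781 TPM at 6, 18, 24 and 30 h, and Atp5b, the beta subunit that holds the catalytic sites, had 976, 800, 1140 and 1143 TPM. Atp5c1, the gamma shaft, had 762, 1096, 1106 and 974 TPM. Atp5d, in the foot of the shaft, had 162, 153, 252 and 227 TPM. For each of these 4 the difference between 30 h and 6 h was smaller than the SD over cells. Atp5l, a subunit of the membrane part, had 828, 1112, 585 and 514 TPM, but 31.5% of its words were unique, and its log2 fold change of -0.69 became 0.11 when all cells were used.

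The genes of subunit c shifted against each other. Atp5g1, Atp5g2 and Atp5g3 encode the same mature protein of the membrane ring with different import sequences. Atp5g1 had 796 ± 484, 517 ± 554, 521 ± 249 and 438 ± 271 TPM at 6, 18, 24 and 30 h (SD over 53, 56, 55 and 57 cells). Atp5g2 had 974, 638, 1225 and 1165 TPM at the same times, and Atp5g3 had 639, 791, 796 and 814 TPM. Atp5g1 was lower at 18, 24 and 30 h than at 6 h while Atp5g3 was higher, and Atp5g2 was lowest at 18 h. The GC content of the longest coding transcript was 46.8% for Atp5g1 (4715 bases), 63.3% for Atp5g2 (753 bases) and 50.5% for Atp5g3 (723 bases). That of Atp5g1 is much the longest and shares 50-base words with 163 other genes. Its use in these cells was not tested. The part of base composition in their 18 h values was not tested. The sum of the 3 means was 2409, 1946, 2542 and 2418 TPM, so it was nearly the same at 30 h and at 6 h.

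Within the family, Atp5g1 held 18.1% of the summed means at 30 h, against 33.0% at 6 h, with 26.6% at 18 h and 20.5% at 24 h. In single cells its median share was 17.4% at 30 h, with quartiles of 10.9% and 24.3%, against 32.8% at 6 h, with quartiles of 23.5% and 37.8%. Atp5g1 was the highest of the 3 in 1 of 57 cells at 30 h, against 14 of 53 at 6 h. Its cells still overlapped in level, with 0 to 987 TPM at 30 h and 29.5 to 2418 TPM at 6 h. The log2 fold change of Atp5g1 at 30 h against 6 h, -0.86, lay between -1.06 and -0.78 under every alternative tried, and that of Atp5g3, 0.35, between 0.09 and 0.57. At 12 h against 0 h Atp5g1 had a log2 fold change of -0.02, and its family share was 33.7% at 12 h, against 30.9% at 0 h. Its median share over cells was 22.5% at 12 h, against 29.1% at 0 h, so means and medians differed in direction there. Of the 50-base words of their longest coding transcripts, 89.4% were unique in Atp5g1 and 85.2% in Atp5g2, the rest being shared with transcripts of other genes, and Atp5g3 shared 0 words. The unlike lengths given above make these shares hard to compare.

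**Figure D3:**
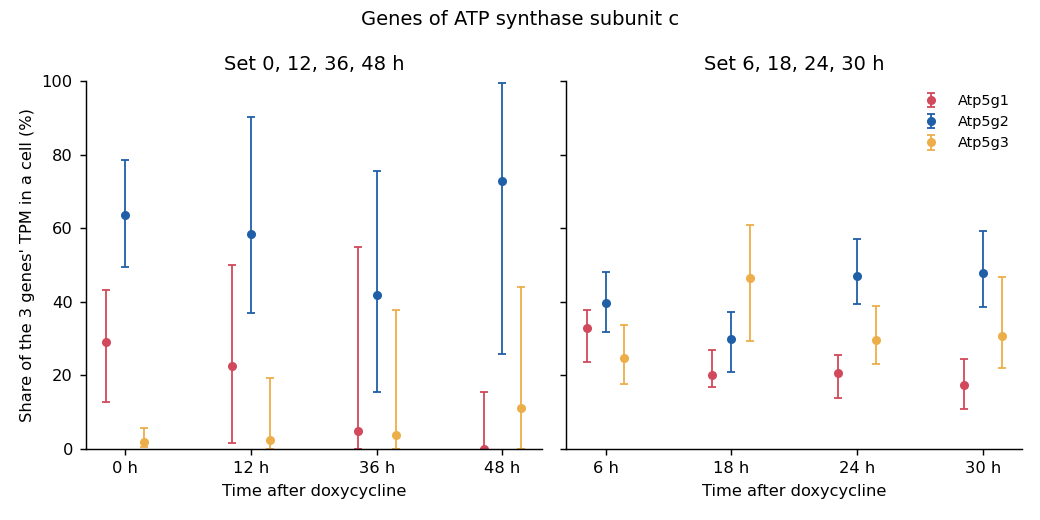
Share of each subunit c gene in the summed TPM of Atp5g1, Atp5g2 and Atp5g3 of a cell (y axis, percent) by time point (x axis), as the median over cells (points) with quartiles (error bars). At 6, 18, 24 and 30 h the median of Atp5g1 is 32.8%, 20.0%, 20.6% and 17.4%.

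At 18 h members 2-fold above 6 h were no more frequent than such genes at large. Of the 83 members that passed, 8 (9.64%) were at least 2-fold higher and none lower, beside 11.8% and 7.36% of the 6083 genes that passed. Of 71 members of at least 100 TPM in at least 80% of cells, 4 (5.63%) were higher and none lower, beside 6.03% and 7.83% of such genes. The members' median log2 fold change was 0.05, and that of all genes 0.07, and rescaled to a median of 0 for all genes the members' was -0.03. The 8 were Ndufa4l2, Ndufc2, Ndufab1, Ndufaf4, Ndufv2, Cox5a, Cox7a1 and Ndufaf3.

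Ndufc2, a small subunit of the membrane arm of complex I, had 88.8 ± 62.8, 306 ± 228, 142 ± 89.4 and 118 ± 91.2 TPM at 6, 18, 24 and 30 h (SD over 53, 56, 55 and 57 cells). The 18 h mean stood above the other 3, and the median cell had 265 TPM at 18 h, against 76.2 TPM at 6 h. Ndufv2, an iron-sulfur core subunit, had 153 ± 107, 330 ± 169, 232 ± 142 and 209 ± 115 TPM at the same times. It too was highest at 18 h, with a log2 fold change of 1.11 against 6 h. Ndufa4l2, the paralog of Ndufa4 known to be induced by low oxygen, had 2.54, 26.7, 16.3 and 10.7 TPM at 6, 18, 24 and 30 h. It was above 0 in 41.1% of cells at 18 h, against 17.0% at 6 h, and 1 cell reached 754 TPM at 18 h.

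Base composition moved with the 18 h values. The log2 fold change at 18 h against 6 h had a Spearman correlation of -0.38 with transcript GC content across the 83 members, and of -0.41 across the 5045 genes that passed and had a GC value, 82.9% of those that passed. Genes are not independent replicates, so this is a description of these libraries. The 28 members with the lowest GC content had a median log2 fold change of 0.45, and the 28 with the highest had -0.13. With the trend removed, 7 members were 2-fold higher at 18 h. At 30 h against 6 h the correlation was -0.03 across the members. The part of base composition in the 18 h values was not tested.

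**Figure D4:**
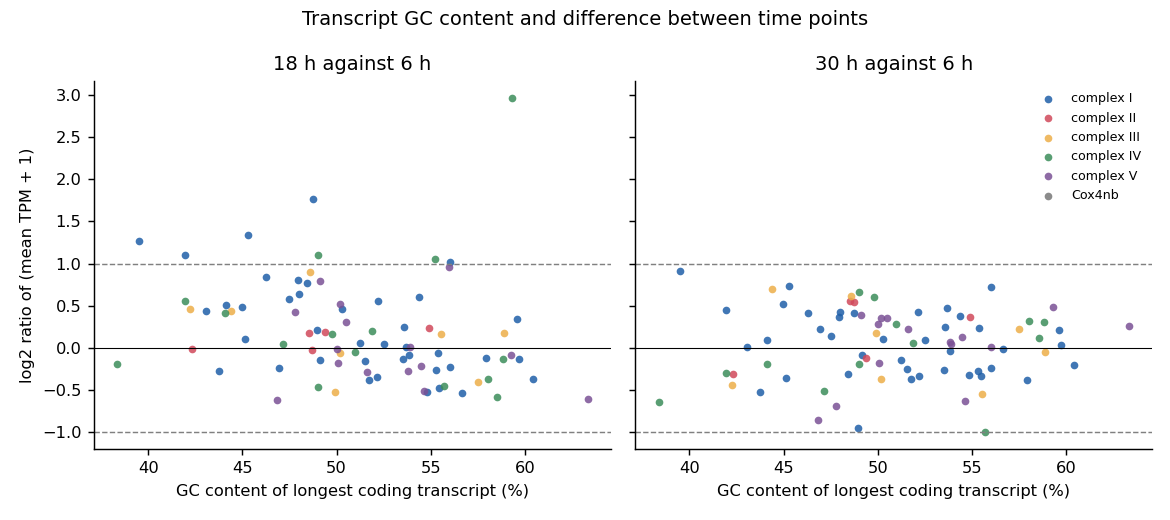
Log2 ratio of (mean TPM + 1) between time points (y axis) against the GC content of each member's longest coding transcript (x axis, percent), at 18 h against 6 h (left) and 30 h against 6 h (right), with 1 point per member that passed, coloured by complex. The left panel slopes down, with a Spearman correlation of -0.38, and the right panel is flat, at -0.03.

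At 24 h against 6 h, 2 of 83 members that passed were at least 2-fold higher and 1 was lower, beside 13.5% and 6.28% of all genes that passed. Among the 71 members of at least 100 TPM in at least 80% of cells, 1 was higher and none lower, beside 4.43% and 7.23% of such genes. The higher ones were Ndufa4l2 and Cox5a, with log2 fold changes of 2.29 and 1.09, and the lower one was Cox6b2, with -1.12. The members' median was 0.22, and that of all genes 0.24, and rescaled it was -0.01.

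The set that starts at 0 h gave more variable values. At 12 h against 0 h, 75 members passed, 10 were at least 2-fold higher and 1 lower, beside 17% and 13% of the 5848 genes that passed, and the median log2 fold change was 0.31 for the members and 0.04 for all genes. Over all subunits that passed, complex I had the highest median, 0.58 over 35 subunits, with 7 higher and 1 lower, while complexes II to V had medians of -0.02 to 0.23. Ndufa10, a subunit on the matrix side of the membrane arm, had 254 ± 395 TPM at 12 h (SD, n = 52 cells), against 70.2 ± 124 TPM at 0 h (n = 37). Ndufb10 had 122 ± 331 TPM at 12 h, against 34.6 ± 76.4 TPM at 0 h. These SDs exceed the means, and the median cell had 0 TPM of Ndufb10 at both times.

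The other members past 2-fold at 12 h were Sdhd with a log2 fold change of 1.52, Ndufa8 (90.3 TPM at 12 h, against 31.2 TPM at 0 h), Ndufs4 with 1.37, Ndufa3 with 1.21, Atp5d with 1.14, Atp5g3 with 1.11, Ndufv2 with 1.10 and Ndufc2 with 1.01, and the lower one was Ndufs1, with -1.09. Ndufa8 and Ndufs4 were each above 0 in fewer cells at 12 h, 38.5% and 46.2%, against 54.1% and 59.5% at 0 h, so their higher means came from fewer cells. The median kept cell had 4269 genes above 0 at 12 h, against 5304 at 0 h. With all 96 cells per time point, the sign of Ndufa3, Ndufa8, Ndufc2, Ndufs1, Ndufs4 and Ndufv2 reversed, and the members' median became -0.28.

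At 36 h and 48 h detection was low, with a median of 31 and 26 of the 91 members above 0 in a cell, beside 56 at 0 h. At 36 h against 0 h, 13 of 72 members that passed were at least 2-fold higher and 10 lower, beside 22.5% and 28.5% of all genes that passed. Without the highest cell of each gene these were 8 and 18, with all cells 2 and 14, and by the median over cells 1 and 42, so the balance turns with the cells used. At 48 h against 0 h, 14 of 70 were higher and 24 lower, beside 22.8% and 43.4%. Without the highest cell of each gene these were 5 and 39, with all cells 1 and 20, by the median over cells 3 and 38, in even-numbered cells 9 and 40, and rescaled 22 and 19. The members' medians were 0.08 at 36 h, beside -0.18 for all genes, and -0.31 at 48 h, beside -0.62 for all genes. Rescaled to a median of 0 for all genes, the 48 h value was 0.31. Among genes of at least 100 TPM in at least 80% of cells at the higher time point, the order differed. The median at 36 h was -0.56 for 14 members and -0.58 for all such genes. At 48 h it was -1.66 for 15 members and -0.82 for all such genes. Of these 15, 8 were 2-fold lower and none higher, beside 44.7% and 11.3% of such genes. Ndufb6, Sdhc, Uqcr11 and Atp5e, among others, had no value above 0 at 48 h (0 of 14 cells, a limit of 21.4% of cells). Ndufb6, Uqcr11 and Atp5e are named after their values were seen.

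**Figure D5:**
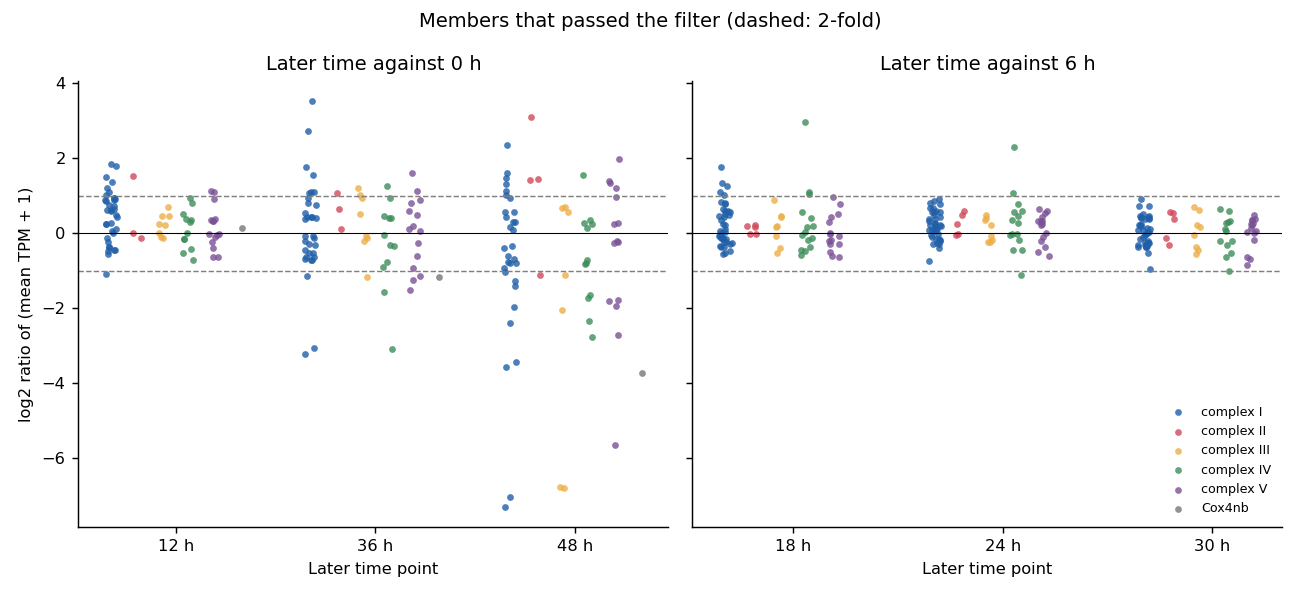
Log2 ratio of (mean TPM + 1) of each member that passed the filter (y axis), at 12, 36 and 48 h against 0 h (left) and at 18, 24 and 30 h against 6 h (right), coloured by complex, with dashed lines at 2-fold. All points at 30 h lie within the dashed lines, while those at 48 h range from -7.29 to 3.10.

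Other genes of the pathway, from lists chosen by role and with earlier results of these data known, gave the surroundings. Of 13 genes encoded in mitochondrial DNA, 2 matched: MT-ND4 had 5787, 9279, 5339 and 6703 TPM at 6, 18, 24 and 30 h, and CYTB had 6045, 9689, 6814 and 6828 TPM. Of these 4 times both were highest at 18 h, and neither differed 2-fold from 6 h at 18, 24 or 30 h. In the other set, MT-ND4 had 3954, 2967, 13538 and 9636 TPM and CYTB 1152, 1419, 3610 and 2400 TPM at 0, 12, 36 and 48 h, so both were at least 2-fold higher at 36 h and 48 h than at 0 h, where the nuclear members had medians of 0.08 and -0.31. Among cytochrome c and carriers, 11 of 13 passed at 30 h against 6 h, with 1 at least 2-fold higher, the outer-membrane channel Vdac3 (363 TPM at 30 h, against 161 TPM at 6 h), none lower and a median of -0.06. Cycs, the somatic cytochrome c, had 161, 303, 172 and 129 TPM at 6, 18, 24 and 30 h.

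Of the 30 assembly factors matched, 22 passed at 30 h against 6 h, with none higher at 2-fold and 1 lower, and a median of 0.24. The lower one was Cox16, an assembly factor of complex IV, with 1322, 301, 306 and 331 TPM at 6, 18, 24 and 30 h, high at 6 h only. Of 15 regulators, 9 passed, with 1 higher (Polg, the mitochondrial DNA polymerase, 16.5 TPM at 30 h, against 7.22 TPM at 6 h) and none lower. Nrf1 itself had 27.9, 19.8, 34.0 and 26.3 TPM, Gabpa 16.7, 12.8, 9.41 and 10.5 TPM, and Ppargc1a, a coactivator of mitochondrial genes, stayed at or below 0.27 TPM in those 4 times. Of 16 citrate cycle enzymes, 15 passed, with 1 higher (Sucla2) and 1 lower (Ogdh) and a median of 0.44.

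Glycolytic enzymes had a median below 0 at 18 h, as did other abundant genes. Of the 13 that passed at 18 h against 6 h, 4 were at least 2-fold lower and none higher, beside 7.36% and 11.8% of all genes that passed. Their median was -0.65, beside 0.05 for the members, -0.35 for cytosolic ribosomal proteins and -0.14 for proteasome subunits. The part of base composition in these 18 h values was not tested. At 30 h against 6 h none of 13 was past 2-fold and the median was -0.23. As other abundant genes, the 69 cytosolic ribosomal proteins gave a median of -0.05 in the same comparison with none past 2-fold, and the 35 of 39 proteasome subunits that passed had 0.00 with 1 lower. A narrow spread between 30 h and 6 h was thus measured in these lists too.

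Across single cells at 6, 18, 24 and 30 h, the shares of the complexes varied together. The summed share of complex I and that of complex IV had a Spearman correlation of 0.82, 0.85, 0.65 and 0.75 at 6, 18, 24 and 30 h (53, 56, 55 and 57 cells). Complexes I and V gave 0.76, 0.80, 0.45 and 0.55 at those times. At 0, 12, 36 and 48 h the values were 0.49, 0.67, 0.34 and 0.48 for complexes I and IV, and 0.42, 0.31, 0.14 and -0.02 for complexes I and V. The members' total share was lower in cells with more genes above 0, with -0.33, -0.50, -0.34 and -0.34 at 6, 18, 24 and 30 h, but the values were 0.22, 0.27, 0.16 and -0.07 at 0, 12, 36 and 48 h. Against the neuron marker score it gave -0.05, -0.18, -0.22 and -0.15 in the first set, and 0.10, 0.14, -0.07 and 0.16 in the second. With the summed cytosolic ribosomal proteins the values were 0.51, 0.61, 0.26 and 0.63, and 0.25, 0.13, 0.41 and 0.64, so varying together was not limited to the complexes. With the summed glycolytic enzymes they were -0.33, 0.10, -0.38 and -0.19, and 0.39, 0.44, 0.37 and 0.26. The labels set no cultures apart among the cells of a time point, and shares of one total are not free of each other, so these values describe the cells and carry no test.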

How the data were processed

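The 768 cells of 8 time points were profiled by SMART-Seq2 as single-end 50 bp reads. The deposited values are TPM, each column summing to 1000000, and the column names carry the word rsem, per the file headers. Picard, bcl2fastq and the build mm10 are named in the submitters' processing notes. No source used here names the aligner or the annotation. Read counts are not in the table, so the depth behind a value is unknown, and exact binomial intervals (95%) and limits for a share of 0 (3 cells of the total) cover counting of cells only.

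Cells with under 2000 genes above 0 were left out (400 of 768). Fold changes are log2 of the ratio of (mean TPM + 1) between time points, where the higher time point reaches a mean of 10 TPM and holds the gene in 25% of its cells or more. The added 1 understates the change of low genes. A 2-fold difference is a size, not a test. Each time point is 1 sample, cells are not replicates, and no p-value was computed. The 91 members and all lists were chosen with earlier results of these data known. Of the members, 87 matched RefSeq by symbol and 4 by synonym. Named members were the core subunits, the paralog groups, the 5 highest, those past 2-fold at 12 h or 30 h and the extremes of each complex at those times; others are named after their values were seen. Values of 1 member are not reported here singly. Of the list genes, 116 matched by symbol, 13 by synonym and 12 not at all. The GC content and the share of unique 50-base words were computed from the longest annotated coding transcript of each gene, with words sought in all annotated transcripts. The tools were scipy 1.17.1, pandas 2.3.3, numpy 2.4.6 and matplotlib 3.10.9 under Python 3.11.15. Alternatives changed the pseudocount (0.1 or 10), the gene minimum (1000, 4000 or none), the filter, the fold limit (1.5), the scaling, the summary over cells, and the cells used.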

Additional observations from a re-analysis of the deposited data

How the results depend on the processing

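No paired analysis was possible because the results come from no test and the labels do not say that cells of the same number at different time points are paired. With a gene minimum of 4000 no cell was left at 36 h and 48 h, so no value was had there. Removing the GC trend and keeping members with at least 90% unique words were chosen after seeing the data. Single genes were recomputed at 12 h against 0 h and 30 h against 6 h only. Of these values, 1058 moved by less than 1.5-fold, 108 moved by more, and 10 past 2-fold changed sign, all at 12 h against 0 h. Smaller values changed sign at both times, such as Atp5l at 30 h (0.11 with all cells). By the median over cells Atp5g3 was -0.10, Ndufa8 -2.65 and Ndufs4 -1.88. With all cells Ndufa3 was -0.80, Ndufa8 -0.77, Ndufc2 -0.86, Ndufs1 0.65, Ndufs4 -1.29 and Ndufv2 -0.078. With at least 4000 genes Ndufc2 was -0.35. The cause was not tested.

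The members' median at 12 h was -0.28 with all cells, and at 36 h it was -3.86 by the median over cells. At 48 h it was 0.31 rescaled to a median of 0, -4.28 by the median over cells, -1.31 without the highest cell, -1.61 in even-numbered cells and 0.32 with the GC trend removed. The other 81 medians moved by less than 1.5-fold, and some changed sign: by the median over cells 12 h was -0.12 and 18 h -0.16, rescaled 18 h was -0.03, 24 h -0.01 and 30 h -0.11, and with all cells 36 h was -0.46. Of the recomputed summed shares, 68 moved by less than the SD over cells and 2 by more. These were 0 h with all cells, at 2.19%, and 24 h rescaled without the highest genes, at 4.11%.

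Members 2-fold higher at 12 h, 10 as reported, numbered 25 at 1.5-fold, 6 with all cells and 17 in odd-numbered cells. At 18 h, 8 as reported, they numbered 16 at 1.5-fold, 15 with all cells and 5 with at least 4000 genes. At 24 h, 2 as reported, they numbered 14 at 1.5-fold, 6 with all cells, and 1 with at least 1000 genes, by the median over cells or rescaled. At 30 h, 0 as reported, they numbered 7 at 1.5-fold, 8 with all cells, 1 with at least 4000 genes or by the median over cells, and 3 without a filter.

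Members 2-fold lower at 12 h, 1 as reported, numbered 4 at 1.5-fold, 19 with all cells, 2 with at least 1000 genes, 5 in even-numbered and 3 in odd-numbered cells, 9 by the median over cells, 3 without a filter and 0 with a pseudocount of 10. At 18 h, 0 as reported, they numbered 3 at 1.5-fold, 2 with all cells and 6 by the median over cells. At 24 h, 1 as reported, they numbered 3 at 1.5-fold, 2 with all cells, 3 by the median over cells and 0 with a pseudocount of 10. At 30 h, 0 as reported, they numbered 6 at 1.5-fold, 8 with all cells, 5 by the median over cells, 3 rescaled to a median of 0, 3 in odd-numbered cells, 2 without a filter, and 1 each with a pseudocount of 0.1, rescaled without the highest genes, in even-numbered cells and with the GC trend removed.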
